A study of Homo sapiens with 6 samples.

Results

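ZEB1, ZEB2, SNAI1 and OVOL1 are transcription factors that control the epithelial to mesenchymal transition (EMT), the switch by which epithelial cells lose contacts and take on features of motile mesenchymal cells. They were taken from the deposited RNA-seq table by gene symbol, 1 row each, so that 4 of the 1705 genes in the table are described. The samples were 3 libraries of PC9-GR and 3 of PC9, each from an independent culture. PC9 is a human lung adenocarcinoma line with an EGFR exon 19 deletion, a genotype given for both lines. PC9-GR is its derivative resistant to gefitinib, an EGFR kinase inhibitor. It was selected with doses raised from 0.5 to 10 µM, kept at 10 µM, and grown without the drug for 7 days before RNA was taken. The labels do not say whether PC9-GR is 1 clone. PC9-GR was thus compared off drug with the parental line, and no untreated passage-matched control was analysed here.

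ZEB1 and ZEB2 are zinc finger and homeobox proteins that bind E-boxes in DNA and repress epithelial genes such as E-cadherin. SNAI1 is a zinc finger repressor of the same class of targets and usually acts early in EMT. OVOL1 is a zinc finger factor of epithelia that is known to hold ZEB1 in check, while microRNAs of the miR-200 family and miR-205 limit the ZEB messages.

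In PC9-GR the mesenchymal factors ZEB1, ZEB2 and SNAI1 were higher than in PC9 and the epithelial factor OVOL1 was lower. The ratio of mean levels was 12.7 for ZEB2, 6.06 for ZEB1 and 2.81 for SNAI1, and OVOL1 fell 3.44-fold. In PC9, OVOL1 stood above the 3 mesenchymal factors, and in PC9-GR it stood below all 3. No library of one line overlapped the other line for any of the 4 genes, as was true of 98.3% of the 1207 genes tested.

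The table is a selection of changed genes. In the authors' deposited table the absolute log2 ratio is at least 1.0002 and the p-value at most 0.04965 for every gene listed. The 4 genes are in it because these same libraries placed them there, and the tests below are therefore no independent evidence that they differ. Values are FPKM, fragment counts scaled to transcript length and library depth, which can be compared between genes as a level per length. The FPKM file gives no counts, so sequencing depth is unknown. Between 1116 and 1150 listed genes reached 1 FPKM in PC9-GR libraries, and between 987 and 1002 in PC9 libraries. The listed genes summed to 16705 to 17114 FPKM in PC9-GR libraries and to 28346 to 30541 FPKM in PC9 libraries. The limma test was run on log2(FPKM + 1) for genes that reached 1 FPKM in 3 or more libraries, and a call is an adjusted p under 0.05 over the 1207 tested genes. Differences on this scale understate the change of low genes. All 4 genes were called, but so were 99.7% of the genes tested (48.4% higher and 51.3% lower), so a call by itself sets no gene apart.

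ZEB1 (ENSG00000148516) measured 5.706, 4.7821 and 5.9929 FPKM in the PC9-GR libraries, against 0.8298, 0.8357 and 1.0542 FPKM in the PC9 libraries. The lowest PC9-GR library was 4.54 times the highest PC9 library. The means were 5.49 ± 0.633 FPKM in PC9-GR and 0.907 ± 0.128 FPKM in PC9 (SD, n = 3 each). The difference on the log2(FPKM + 1) scale was 1.77 with a standard error of 0.14 (limma, adjusted p = 1.7e-06). ZEB1 passed the filter through the 3 PC9-GR libraries and 1 PC9 library. In the authors' deposited table ZEB1 has a log2 ratio of 2.49, with 0.000285 as its q-value. That q-value stands beside the smallest p-value in the authors' deposited table, 5e-05, which 59.8% of its genes share, the other 3 factors included.

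The table places ZEB1 on chromosome 10 at 31476811 to 31818742 and names no genome build. That locus spans 341932 bp, whereas the ZEB1 gene spans 211320 bp in GENCODE 29. In GENCODE 29 the antisense RNA gene ZEB1-AS1 overlaps ZEB1 by 1953 bp, and the pair together span 323537 bp. Whether the authors counted reads by strand is not given in the sources used here. Reads from the stretch that ZEB1 and ZEB1-AS1 share can therefore not be told apart. ZEB1-AS1 was not analysed here.

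RefSeq (GRCh38.p14) gives ZEB1 7 promoter windows, each of 300 bases and mostly upstream of a start site. The windows were searched on both strands for the E-box CACCTG, whose reverse complement is CAGGTG, the site that ZEB and SNAI1 proteins bind, and for CCGTTA, whose reverse complement is TAACGG, the core bound by OVO family proteins. The E-box was in 2 of the 7 windows, and 20.6% of all 35116 windows of 300 bases hold it. The OVO core was in 1 of the 7 ZEB1 windows, against 3.07% of all windows. ZEB2 has 1 window, which holds the OVO core and no E-box. SNAI1 and OVOL1 had no window to search. The 1 window of VIM and the 2 windows of CDH2, which are mesenchymal genes, held neither motif. The 3 windows below are shown because they hold the letters that ZEB, SNAI1 and OVO family proteins are known to read. Capitals mark the E-boxes in the first and the OVO core in the other 2.
ZEB1 window with 3 E-boxes, chr10:31318966-31319265, + strand: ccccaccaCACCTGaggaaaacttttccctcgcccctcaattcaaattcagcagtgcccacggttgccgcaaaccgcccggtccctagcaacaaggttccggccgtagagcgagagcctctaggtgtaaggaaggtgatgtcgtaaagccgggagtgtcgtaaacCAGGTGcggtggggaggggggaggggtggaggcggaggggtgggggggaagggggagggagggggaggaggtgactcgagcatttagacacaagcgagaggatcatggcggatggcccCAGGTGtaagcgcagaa
ZEB1 window with the OVO core, chr10:31319518-31319817, + strand: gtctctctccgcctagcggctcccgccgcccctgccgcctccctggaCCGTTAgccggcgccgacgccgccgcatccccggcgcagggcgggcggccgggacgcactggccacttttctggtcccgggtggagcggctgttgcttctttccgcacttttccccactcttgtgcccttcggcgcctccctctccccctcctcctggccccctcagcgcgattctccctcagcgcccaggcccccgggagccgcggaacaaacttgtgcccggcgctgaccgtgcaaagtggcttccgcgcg
ZEB2 window with the OVO core, chr2:144520070-144520369, - strand: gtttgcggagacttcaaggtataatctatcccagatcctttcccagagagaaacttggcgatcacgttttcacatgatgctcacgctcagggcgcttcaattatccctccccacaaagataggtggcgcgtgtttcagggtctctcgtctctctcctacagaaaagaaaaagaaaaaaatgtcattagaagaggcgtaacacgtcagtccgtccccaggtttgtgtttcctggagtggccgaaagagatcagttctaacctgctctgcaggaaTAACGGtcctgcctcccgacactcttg
In the first window the E-boxes begin at -242, -85 and 33 bases from the start site. The OVO core begins at -203 in the second ZEB1 window and at 23 in the ZEB2 window. Windows with at least 2 E-boxes make up 3.49% of all windows. These are matches of letters, and binding was not measured.

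ZEB2 (ENSG00000169554) measured 3.9808, 3.378 and 4.8611 FPKM in the PC9-GR libraries, against 0.1338, 0.2688 and 0.5591 FPKM in the PC9 libraries. It was the lowest of the 4 genes in every PC9 library, below 1 FPKM throughout. Its level there was also the least even, with a coefficient of variation of 67.8% against 18.3% in PC9-GR. The means were 4.07 ± 0.746 FPKM in PC9-GR and 0.321 ± 0.217 FPKM in PC9 (SD, n = 3 each), and the difference on the log2(FPKM + 1) scale was 1.94 with a standard error of 0.16 (limma, adjusted p = 2.57e-06). With a pseudocount of 0.1 in place of 1 the difference was 3.42. The ratio of means, 12.7, was 20.2 without PC9 replicate 3, the PC9 library with the highest ZEB2 level. ZEB2 passed the filter only through the PC9-GR libraries, so among the genes tested it had to differ, and its call adds nothing to its inclusion. The authors' deposited table gives ZEB2 a log2 ratio of 3.60.

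The table places ZEB2 on chromosome 2 at 145141647 to 145282147. GENCODE 29 places a pair of antisense genes wholly inside ZEB2, AC009951.2 with 5603 bp and ZEB2-AS1 with 3500 bp. Their reads cannot be told from those of ZEB2 without the strand setting, and neither was analysed here.

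SNAI1 (ENSG00000124216) measured 4.1287, 4.156 and 3.9864 FPKM in the PC9-GR libraries, against 1.5473, 1.3901 and 1.4273 FPKM in the PC9 libraries. It had the smallest change and the tightest replicates of the mesenchymal factors, with coefficients of variation of 2.23% in PC9-GR and 5.65% in PC9. The means were 4.09 ± 0.0911 FPKM in PC9-GR and 1.45 ± 0.0822 FPKM in PC9 (SD, n = 3 each), and the difference on the log2(FPKM + 1) scale was 1.05 with a standard error of 0.12 (limma, adjusted p = 2.01e-05). With libraries scaled to equal totals the difference was 1.62. All 6 libraries were above 1 FPKM, so SNAI1 passed the filter in both lines. The authors' deposited table gives SNAI1 a log2 ratio of 1.49 and places it on chromosome 20 at 48599535 to 48605423.

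OVOL1 (ENSG00000172818) measured 2.378, 2.4066 and 1.9045 FPKM in the PC9-GR libraries, against 7.8775, 7.5773 and 7.5415 FPKM in the PC9 libraries. Every PC9-GR library lay below every PC9 library, and the lowest PC9 library was 3.13 times the highest PC9-GR library. The means were 2.23 ± 0.282 FPKM in PC9-GR and 7.67 ± 0.185 FPKM in PC9 (SD, n = 3 each), and the difference on the log2(FPKM + 1) scale was -1.43 with a standard error of 0.13 (limma, adjusted p = 4.41e-06). With libraries scaled to equal totals over the table the difference was -0.80 (limma, adjusted p = 0.000332), the largest shift of any member under a scaling. The authors' deposited table gives OVOL1 a log2 ratio of -1.76.

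OVOL1 shares its locus in the table, chromosome 11 at 65554492 to 65564690, with a second listed gene, RP11-770G2.5 (ENSG00000255404). That gene measured 3.3233, 3.2007 and 3.2172 FPKM in the PC9-GR libraries, against 12.1584, 11.8594 and 11.4508 FPKM in the PC9 libraries. It fell 3.64-fold, close to the 3.44-fold of OVOL1, and per length it stood above OVOL1 in every library. GENCODE 29 annotates it as antisense to OVOL1, and its 1274 bp lie under 38.0% of the 3356 exonic bases of OVOL1. A further antisense gene, OVOL1-AS1, lies wholly inside OVOL1 over 1818 bp and was not analysed here. Without the strand setting, reads of OVOL1 from the shared stretches cannot be told from those of either antisense gene. The size of the OVOL1 change is therefore uncertain.

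**Figure D1:**
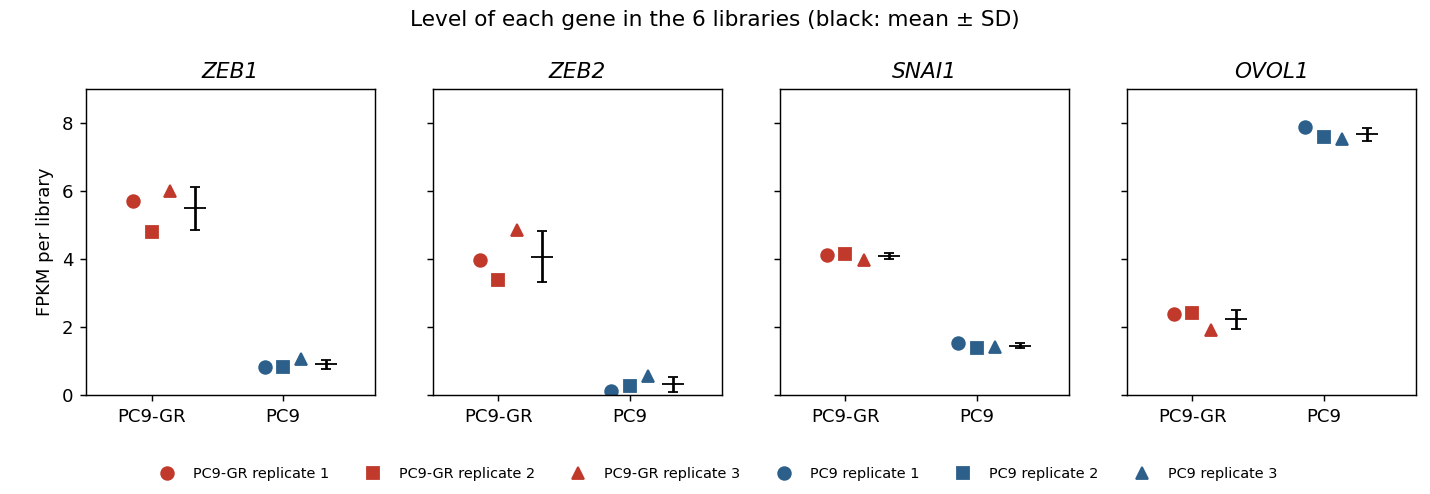
FPKM of each gene (vertical axis) in the 3 PC9-GR libraries (red, left) and the 3 PC9 libraries (blue, right), with the marker shape giving the replicate and black bars the mean ± SD. The 3 mesenchymal factors lie between 3.378 and 5.9929 FPKM in PC9-GR and at or below 1.5473 FPKM in PC9, and OVOL1 lies at 1.9045 to 2.4066 FPKM in PC9-GR and above 7.5 FPKM in PC9.

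The order of the levels changed between the lines. In PC9-GR it was ZEB1, SNAI1, ZEB2 and OVOL1, and in PC9 it was OVOL1, SNAI1, ZEB1 and ZEB2. In PC9-GR the libraries of SNAI1 and ZEB2 overlapped (mean levels 4.09 and 4.07 FPKM), so these neighbours did not differ beyond their spread. The other neighbours did not overlap in either line. ZEB1 stood 1.34 times above SNAI1 in PC9-GR, whereas SNAI1 stood 1.60 times above ZEB1 in PC9. OVOL1 made up 14.1% ± 2.53 of the summed level of the 4 genes in PC9-GR and 74.1% ± 2.48 in PC9 (SD, n = 3 each).

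The same library of a line was highest for both ZEB genes, PC9-GR replicate 3 among the resistant libraries and PC9 replicate 3 among the parental ones. PC9-GR replicate 3 was also the lowest of its line for OVOL1 and for SNAI1.

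Ratios of 2 genes within a library are free of any single scaling factor for that library, and 6 pairs were compared. The ZEB1 to OVOL1 ratio was 2.40, 1.99 and 3.15 in the PC9-GR libraries, against 0.105, 0.110 and 0.140 in the PC9 libraries, a 21.0-fold difference of the geometric means. The SNAI1 to OVOL1 ratio was 1.74, 1.73 and 2.09 in the PC9-GR libraries, against 0.196, 0.183 and 0.189 in the PC9 libraries. The ZEB2 to OVOL1 ratio lay between 1.40 and 2.55 in PC9-GR and between 0.0170 and 0.0741 in PC9. Each mesenchymal factor was thus above OVOL1 in 3 of 3 PC9-GR libraries and below it in 3 of 3 PC9 libraries. A within-library ratio does not remove reads that OVOL1 may share with its antisense genes. The ratios to OVOL1, its share of the sum and its place in the order are therefore uncertain too.

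Among the mesenchymal factors themselves, the levels of the ZEB genes moved further apart between the lines than that of SNAI1. The log2 ratio of ZEB1 to SNAI1 averaged 0.42 ± 0.20 in PC9-GR and -0.69 ± 0.23 in PC9, and that of ZEB2 to SNAI1 averaged -0.02 ± 0.29 in PC9-GR and -2.42 ± 1.09 in PC9 (SD, n = 3 each). ZEB1 was 1.43, 1.42 and 1.23 times ZEB2 in the PC9-GR libraries, against 6.20, 3.11 and 1.89 times ZEB2 in the PC9 libraries, so the level of ZEB2 was closer to that of ZEB1 in PC9-GR. With a pseudocount of 1 in both genes the difference in the log2 ratio of ZEB1 to ZEB2 was -0.18 in place of -1.29 (exact permutation p = 0.3). It was -0.83 without PC9 replicate 1. The same pseudocount gave 0.89 in place of 2.40 for ZEB2 to SNAI1, 0.71 in place of 1.11 for ZEB1 to SNAI1, and 3.37 in place of 5.68 for ZEB2 to OVOL1. No pair overlapped between the lines. Each of the 6 pairs had p = 0.1 in an exact permutation test (two-sided), adjusted 0.1. With 3 against 3 libraries 0.1 is the smallest p that test can give, so no pair could pass 0.05.

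**Figure D2:**
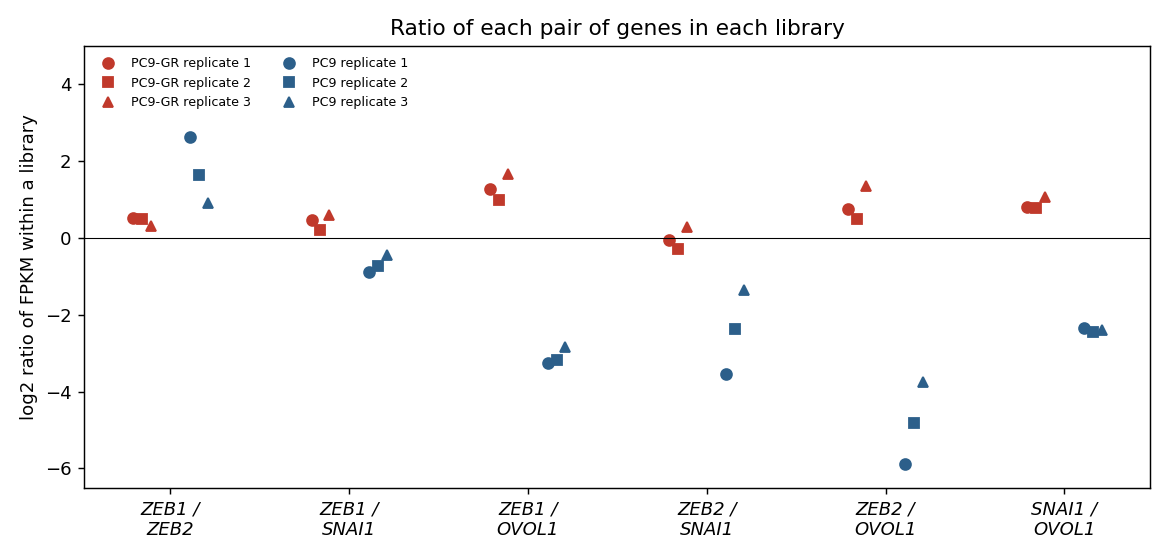
log2 ratio of FPKM within a library (vertical axis) for the 6 pairs of genes, PC9-GR libraries in red at the left of each pair and PC9 libraries in blue at the right. The 3 ratios to OVOL1 are above 0 in PC9-GR and below 0 in PC9, and the ZEB1 to ZEB2 ratio is lower and tighter in PC9-GR.

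Among the 1207 genes tested, the changes of the ZEB genes were large and that of SNAI1 was ordinary. By log2(FPKM + 1) difference, ZEB2 ranked 70 and ZEB1 ranked 91 of the 587 tested genes with higher levels in PC9-GR, and SNAI1 ranked 329. OVOL1 ranked 183 of the 620 tested genes with lower levels. All 4 were called with a difference of at least 2-fold on that scale, as were 65.0% of the genes tested.

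**Figure D3:**
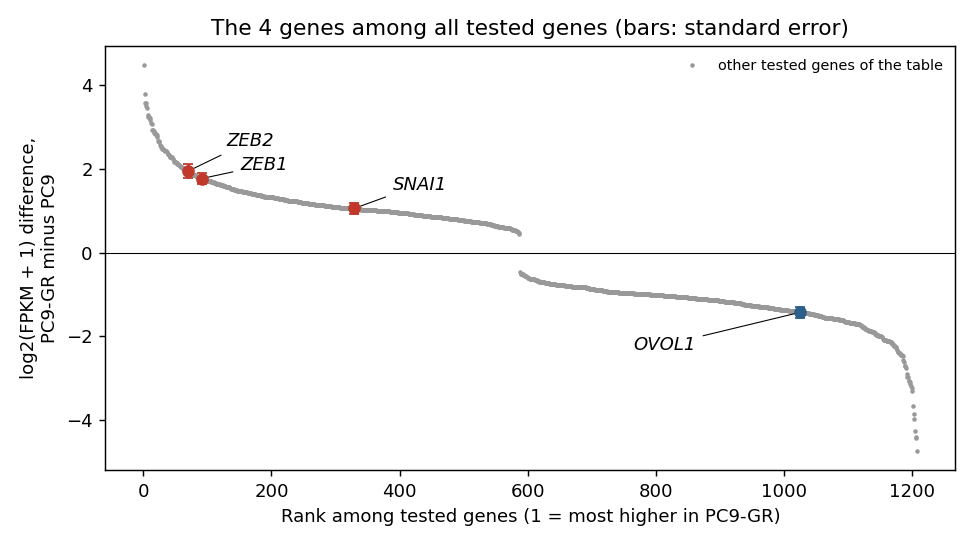
log2(FPKM + 1) difference, PC9-GR minus PC9 (vertical axis), of the 1207 tested genes in rank order (horizontal axis), with ZEB2, ZEB1, SNAI1 and OVOL1 marked and their standard errors as bars. ZEB2 and ZEB1 lie on the steep part among the higher genes, at 1.94 and 1.77, and SNAI1 lies on the flat part at 1.05. No tested gene is near 0, because the authors selected changed genes.

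The genes with the most similar profile were sought by the root mean square distance between centred log2(FPKM + 1) values over the 6 libraries. For ZEB1 they were ADTRP (distance 0.0835), the tripartite motif gene TRIM16 (0.0885), whose reads may be shared with its close copy TRIM16L, and the kinase gene ALPK2 (0.0920). ALPK2 measured 3.02 ± 0.557 FPKM in PC9-GR and 0.312 ± 0.0723 FPKM in PC9 (SD, n = 3 each). For ZEB2 they were RP11-47I22.3 (0.0536), STARD4, a sterol carrier (0.101), and the non-coding RNA RP11-1002K11.1 (0.115). The ZEB genes were near each other, at a distance of 0.134, which made ZEB1 the 5th nearest gene to ZEB2 and ZEB2 the 17th nearest to ZEB1.

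For SNAI1 the nearest were PCDHGC3, a protocadherin (0.0487), PIK3CD, the catalytic subunit p110 delta of PI3-kinase (0.0493), and KIRREL, an adhesion protein (0.0517). PCDHGC3 shares exons with other gamma protocadherins, so its own value is uncertain. For OVOL1 they were COBL, an actin nucleator (0.0617), FOXA1, a pioneer factor of airway and other epithelia (0.0623), and BAIAP2L2 (0.0647). FOXA1 measured 8.93 ± 0.989 FPKM in PC9-GR and 23.6 ± 0.443 FPKM in PC9 (SD, n = 3 each). All genes share the same 6 libraries, so these distances are a description.

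Other EMT factors were rare in the table. Of 20 genes on the list of EMT transcription factors, 4 are in it, the 3 mesenchymal factors above and TCF4. TCF4, an E-protein of the basic helix-loop-helix class that also binds E-boxes, went the other way. It measured 3.1205, 3.7566 and 2.0898 FPKM in the PC9-GR libraries, against 7.9509, 8.1276 and 6.9801 FPKM in the PC9 libraries (limma, adjusted p = 0.000115). TCF4 lies on chromosome 18, where 98 of the 108 listed genes were lower in PC9-GR, against 834 of the 1705 in the whole table. Over the tested genes of the list the median difference on the log2(FPKM + 1) scale was 1.41, against -0.63 over all genes tested, and 3 of the 4 genes behind it are ZEB1, ZEB2 and SNAI1. The median over all genes depends on which genes pass the filter. It was 0.29 with no filter and 0.60 to 0.63 when 1 PC9 library was left out.

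Epithelial transcription factors in the table were lower in PC9-GR throughout. Of 17 on the list, 6 are in the table, OVOL1 among them, and 6 were called lower and 0 higher, with a median log2(FPKM + 1) difference of -1.19. Over all genes tested 51.3% were called lower and 48.4% higher. ELF5, an ETS factor of glandular epithelia, measured 1.95 ± 0.117 FPKM in PC9-GR and 10.4 ± 0.987 FPKM in PC9 (SD, n = 3 each), 5.32-fold lower in PC9-GR, against 3.44-fold for OVOL1. The remaining members are FOXA1, the Krüppel-like factor KLF5, the ETS factor SPDEF and the grainyhead factor GRHL3. SPDEF passed the filter only through the PC9 libraries, so among the genes tested it had to be lower. GRHL3, at 1.30 ± 0.340 FPKM in PC9-GR and 3.02 ± 0.428 FPKM in PC9 (SD, n = 3 each), lost its call with libraries scaled to equal totals (limma, adjusted p = 0.109). The OVOL1 paralogues OVOL2 and OVOL3 were not analysed here.

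Epithelial genes known to be repressed by ZEB or SNAI1 were mostly outside the table: 2 of 38 are in it. E-cadherin (CDH1), the example given above, is not in the table, so its level is not known here. The 2 listed genes were both called lower, as were 51.3% of the genes tested. CLDN1, a tight junction claudin, measured 23.5689, 31.7708 and 22.6688 FPKM in the PC9-GR libraries, against 91.4099, 94.6944 and 74.1546 FPKM in the PC9 libraries. LLGL2, an epithelial polarity protein, measured 13.3243, 14.8832 and 12.8774 FPKM in the PC9-GR libraries, against 31.994, 36.1665 and 34.072 FPKM in the PC9 libraries. Neither gene overlapped between the lines, as was true of 98.3% of the genes tested. The limma adjusted p was 3.32e-06 for CLDN1 and 2.44e-06 for LLGL2. The RefSeq window of CLDN1 held 0 E-boxes. Mesenchymal genes stood the other way, with 13 of 32 in the table, 13 called higher and 0 lower, and a median log2(FPKM + 1) difference of 2.28. Over all genes tested 48.4% were called higher. The largest differences among the 13 were those of COL6A3, VIM and MMP9, at 4.47, 3.57 and 3.56. COL6A3, MMP9, PDGFRB and ACTA2 passed the filter only through the PC9-GR libraries. Among the genes tested they had to be higher, so their calls add nothing to their inclusion.

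**Figure D4:**
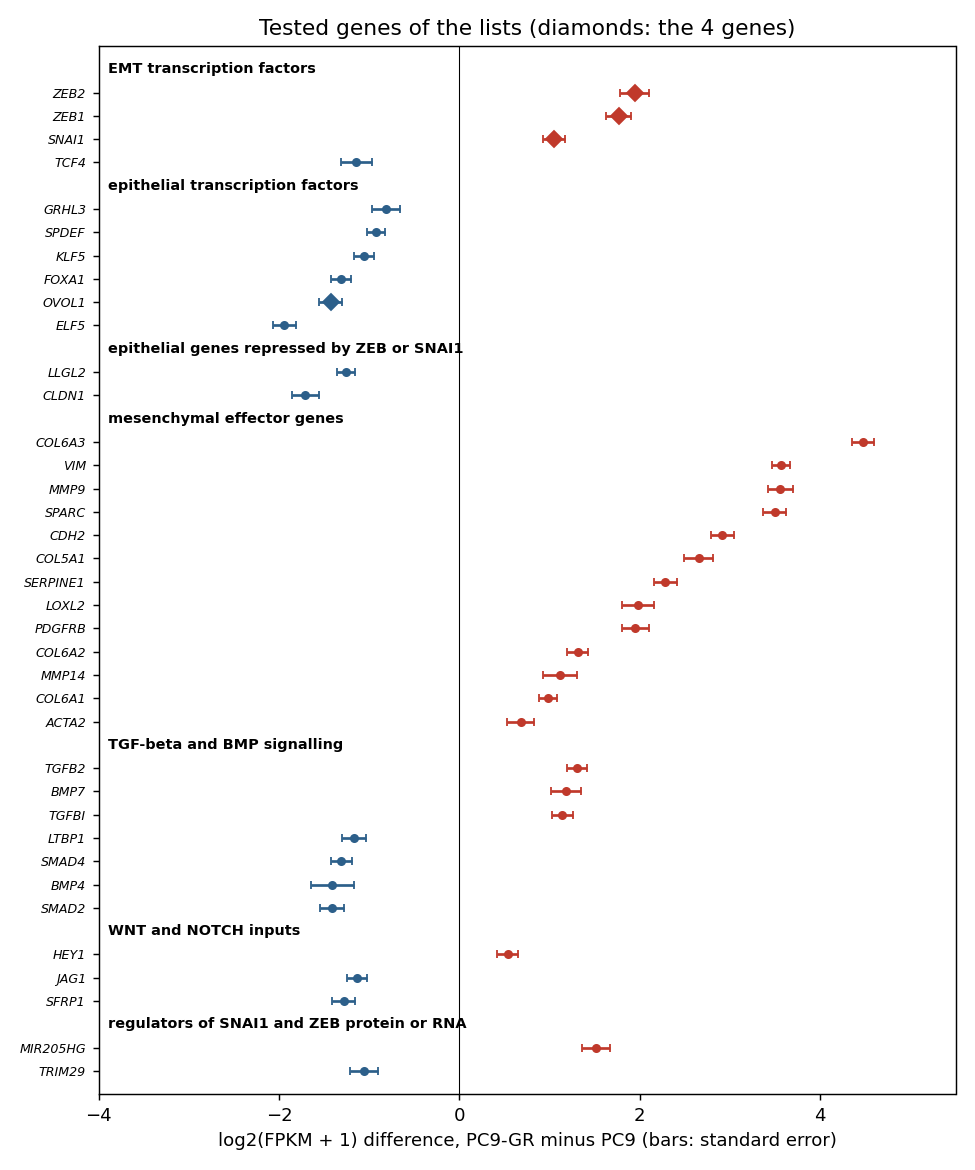
log2(FPKM + 1) difference, PC9-GR minus PC9 (horizontal axis), of the tested genes on each list (rows), with limma standard errors as bars and diamonds for ZEB1, ZEB2, SNAI1 and OVOL1. The 13 mesenchymal genes lie to the right of 0, the 6 epithelial factors lie to the left, and the TGF-beta and BMP genes lie on both sides.

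TGF-beta signalling is a main inducer of SNAI1 and ZEB transcription. Genes on the list of TGF-beta and BMP signalling went in both directions. Of 35 on the list, 8 are in the table and 7 were tested, of which 3 were called higher and 4 lower, with a median log2(FPKM + 1) difference of -1.17. Over all genes tested 48.4% were called higher and 51.3% lower, with a median of -0.63. The ligand TGFB2 measured 62.1 ± 4.69 FPKM in PC9-GR and 24.7 ± 2.55 FPKM in PC9, and TGFBI, a matrix protein named for its induction by TGF-beta, measured 331.95 ± 31.4 FPKM in PC9-GR and 149.8 ± 14.7 FPKM in PC9 (SD, n = 3 each). The ligand BMP7 measured 1.64 ± 0.731 FPKM in PC9-GR and 0.142 ± 0.0124 FPKM in PC9 (SD, n = 3 each). BMP7 passed the filter only through the PC9-GR libraries, so among the genes tested it had to be higher.

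Of the signal transducers of the pathway, SMAD2 and SMAD4 are in the table and both were called lower, as were 51.3% of the genes tested. SMAD2 measured 14.7 ± 2.23 FPKM in PC9-GR and 40.7 ± 4.84 FPKM in PC9, and SMAD4 measured 16.8 ± 1.28 FPKM in PC9-GR and 43.3 ± 5.06 FPKM in PC9 (SD, n = 3 each). Like TCF4, both lie on chromosome 18. The ligand BMP4 and LTBP1, which tethers latent TGF-beta to the matrix, were called lower too. FST, a secreted activin antagonist, did not reach the filter, with 0.943 ± 0.114 FPKM in PC9-GR and 0.457 ± 0.0508 FPKM in PC9 (SD, n = 3 each).

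Of 24 WNT and NOTCH genes, 4 are in the table and 3 were tested, with 1 called higher and 2 lower. The shares over all genes tested were 48.4% called higher and 51.3% called lower. JAG1, a NOTCH ligand, was called lower, as was SFRP1, a secreted WNT antagonist. HEY1, a NOTCH target, was called higher, a call lost under quantile normalization (limma, adjusted p = 0.124). HEY1 passed the filter only through the PC9-GR libraries. AXIN2, a WNT target, did not reach the filter, with 0.866 ± 0.188 FPKM in PC9-GR and 0.298 ± 0.00546 FPKM in PC9 (SD, n = 3 each).

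Of 35 genes known to act on SNAI1 or ZEB protein or RNA, 2 are in the table. MIR205HG, the host transcript of miR-205, measured 77.4398, 115.95 and 106.966 FPKM in the PC9-GR libraries, against 35.9415, 29.8665 and 36.4878 FPKM in the PC9 libraries. It was thus higher in PC9-GR together with ZEB1 and ZEB2, whose messages miR-205 is known to repress (2.94-fold; limma, adjusted p = 9.21e-06). The mature microRNA was not measured. TRIM29, the other listed gene, was called lower, a call lost under both of 2 scalings, with limma adjusted p-values of 0.0922 (equal totals) and 0.054 (quantile). The other calls within the lists held under the 3 scalings tried, apart from those of GRHL3 and HEY1.

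The mature sequence of miR-205-5p is shown with its seed in capitals (bases 2 to 8; RefSeq, GRCh38.p14, chromosome 1), beside the match to that seed in the ZEB1 message, because ZEB1 and the host transcript MIR205HG were both higher in PC9-GR. The match lies after the stop codon of the GENCODE 29 ZEB1 transcript, 818 bases downstream, and is given as DNA with the letters that pair with the seed in capitals.
miR-205-5p: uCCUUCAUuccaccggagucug
ZEB1 site, chr10:31528068-31528089, + strand: atatgtggtaacatATGAAGGa
The match ATGAAGG was searched on the sense strand after the stop codon of 1 transcript per gene. It was found 1 time in ZEB1, in 2549 bases, and 0 times in ZEB2, SNAI1 and OVOL1. Of genes with a stretch of similar length, 19.6% hold it for ZEB1, 35.3% for ZEB2, 5.74% for SNAI1 and 12.7% for OVOL1. Matches to part of the seed were not searched, so a count of 0 does not mean that a gene lacks a site. The ZEB1 site is a match of letters, and pairing was not measured.

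The listed genes beside each member on its chromosome differed in direction. ZEB1 lies in a run of 20 consecutive listed genes that are higher in PC9-GR, and 41 of the 51 listed genes on chromosome 10 (80.4%) are higher. Its nearest listed neighbours are BAMBI, a pseudoreceptor that dampens TGF-beta signalling, 2.50 Mb before it, and C10orf68, 0.916 Mb after it. BAMBI measured 6.08 ± 0.347 FPKM in PC9-GR and 2.10 ± 0.415 FPKM in PC9 (SD, n = 3 each).

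SNAI1 lies in a run of 10 higher genes, with PREX1, a Rac exchange factor, 1.16 Mb before it and FAM65C 0.597 Mb after it. MMP9 and BMP7, named above, are among its 10 nearest listed genes. On chromosome 20, 28 of 49 listed genes are higher. ZEB2 lies at a change of direction. The 5 listed genes before it, from HNMT outward, are lower, and the 4 that follow it, from LYPD6 on, are higher, with gaps of 6.37 and 4.90 Mb on the 2 sides. On chromosome 2, 50 of the 103 listed genes are higher. On chromosome 11, 45 of the 92 listed genes are lower. Of the 10 nearest listed genes of OVOL1, 7 are lower like OVOL1, as is RP11-770G2.5 at its own locus. The nearest on either side, AP000769.1, 0.320 Mb before it, and EFEMP2, a matrix protein 0.0258 Mb after it, are both higher. EFEMP2 measured 17.6 ± 1.64 FPKM in PC9-GR and 4.64 ± 1.11 FPKM in PC9 (SD, n = 3 each). These directions are those of the authors' deposited table, and the part that chromosome position plays in the levels was not tested.

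**Figure D5:**
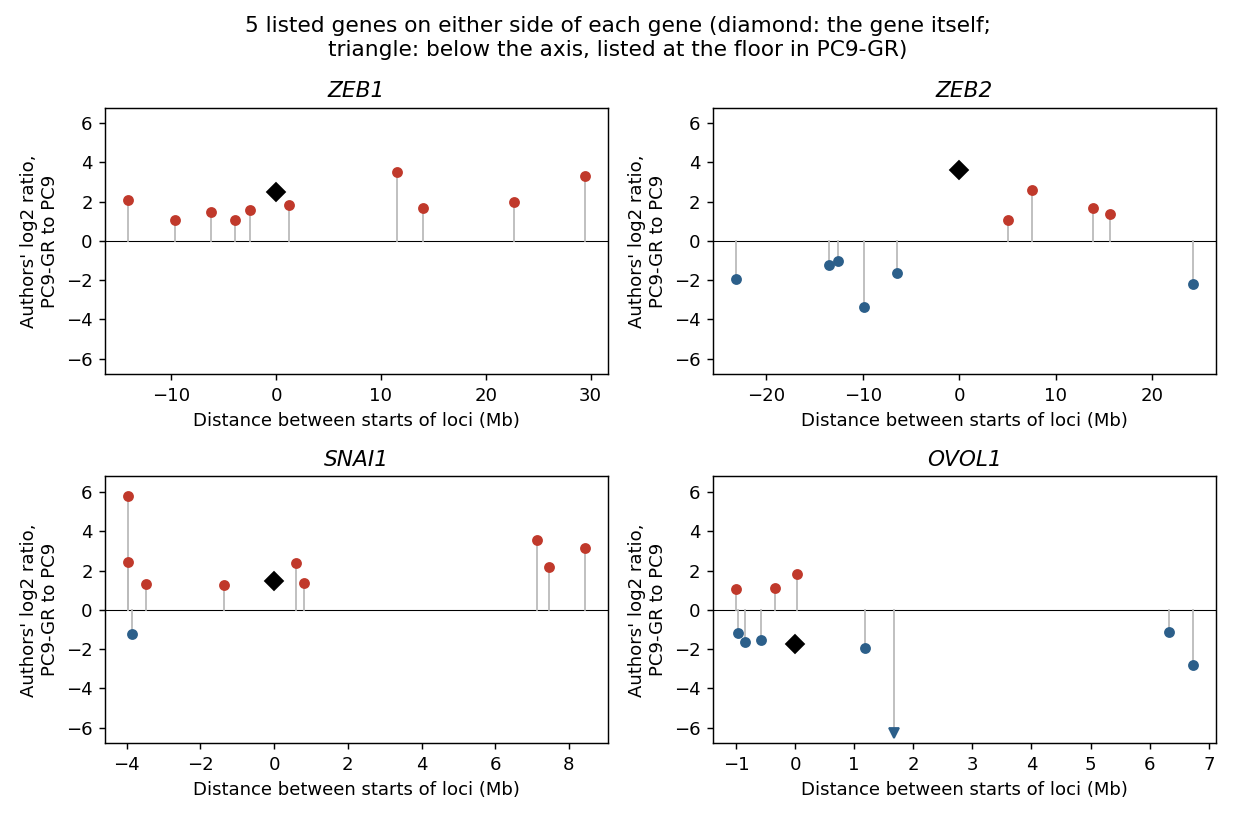
Authors' log2 ratio of PC9-GR to PC9 (vertical axis) for the 5 listed genes on either side of each member, by distance between the starts of the loci in Mb (horizontal axis). The diamond is the member, and a triangle marks a gene listed at the floor in PC9-GR whose ratio lies below the axis. The 10 neighbours of ZEB1 are all higher, those of ZEB2 are lower before it and higher after it except for the farthest, and OVOL1 has 7 lower neighbours and a higher gene directly on each side.

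The labels call both lines epithelial cells. None of the 11 epithelial markers on the list is in the table, which holds changed genes only, so the label could not be checked against them. Some markers of other cells differed between the lines, in both directions. Of 9 fibroblast markers only PDGFRB is listed, which is also 1 of the 13 mesenchymal genes above, at 2.38 to 3.77 FPKM in PC9-GR and 0.0661 to 0.143 FPKM in PC9. Of 10 haematopoietic markers 5 are listed, with a summed level of 46.2 to 57.0 FPKM in PC9-GR and 20.5 to 24.6 FPKM in PC9. CD68 made up most of that sum, at 34.5 to 41.5 FPKM in PC9-GR and 17.4 to 19.3 FPKM in PC9. None of the 7 endothelial markers is listed. CD68, ITGAM, ITGAX and CORO1A were called higher, as were 48.4% of the genes tested. ITGAX passed the filter only through the PC9-GR libraries. LYZ, the lysozyme of myeloid cells, went the other way, with 0.142 ± 0.125 FPKM in PC9-GR and 1.09 ± 0.459 FPKM in PC9 (SD, n = 3 each), and did not reach the filter. The part of such cells in the levels of the 4 genes was not tested, and in bulk RNA more cells that express a gene and more RNA per cell cannot be told apart.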

How the data were processed

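RNA was sequenced from 3 PC9-GR and 3 PC9 cultures. The submitters' processing notes name TopHat and Cufflinks; the sources used here give neither versions nor a build or strand setting. Per the file headers, the deposited table holds FPKM by library and by group, a ratio of the groups with its log2, and the authors' p-value and q-value. The lowest deposited FPKM in a library is 0.001.

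FPKM was used as deposited. The test was limma 3.58.1 in R 4.3.3, two-sided and moderated with a variance trend, on log2(FPKM + 1) with a single group term, adjusted by Benjamini-Hochberg. It was also run on simulated data with known changes, in which most genes were unchanged. The deposited table holds changed genes only, so that run does not check the calls made here. Pairs of genes were compared with exact permutation tests in Python 3.11.15. Promoter and microRNA sequences came from RefSeq and transcripts from GENCODE 29. SNAI1 and OVOL1 have no printed promoter. Depth is unknown, so no counting interval is given.

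The 4 genes and the lists were chosen with earlier results of these data known. Named genes are the 4 members, up to 3 called genes per direction in each list with the largest difference, the 3 nearest profiles of each member, and its nearest listed neighbours. Genes outside this rule, which spell out a small count, share a locus or lost a call, were chosen after their values were seen. Alternatives were another pseudocount, other filters, 3 scalings, a replicate block and leaving out each library.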

Additional observations from a re-analysis of the deposited data

How the results depend on the processing

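Across the 58 alternatives run on the levels of ZEB1, ZEB2, SNAI1 and OVOL1, direction and call were kept in 58. These same libraries placed the 4 genes in the table, so kept calls are no independent evidence. Of the 1207 genes tested, 1019 were called with equal library totals, 1186 with median-ratio scaling and 1140 under quantile normalization. The log2(FPKM + 1) differences ran from 1.60 to 2.31 for ZEB1, from 1.78 to 2.40 for ZEB2, from 0.88 to 1.62 for SNAI1 and from -1.47 to -0.80 for OVOL1. On log2(FPKM + 0.1) they were 2.48, 3.42, 1.43 and -1.74, in the same order of genes. With a filter of 5 FPKM, OVOL1 alone of the 4 was tested, and 627 of 629 genes were called in place of 1203 of 1207; without 1 library 997 to 1098 genes were called, and with no filter 1656 of 1705. Without 1 PC9-GR library ZEB2 no longer passed the filter; with the tested genes kept as with 6 libraries, an alternative chosen after seeing the data, its difference was 1.83 to 2.05. The scalings move the median of all genes from -0.63 to -0.16 with equal library totals, to -0.33 with median-ratio scaling and to -0.29 under quantile normalization. It is 0.29 with no filter, 0.60 to 0.63 without 1 PC9 library and -0.88 to -0.87 without 1 PC9-GR library, where the genes tested differ. With the replicate number as a block, 1205 genes were called and the 4 members kept their calls. Same-numbered libraries deviated together with correlations of -0.10, 0.08 and 0.16, so the numbers were not read as pairs, and 3 of the 6 libraries correlated best with their own number. The 6 pair ratios kept their direction in 42 of 42 alternatives. None of those could reach 0.05. The ratio of means for ZEB2 ran from 9.84 to 20.2 without 1 library, also chosen after seeing the data.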
